A study of Homo sapiens with 6 samples.

Results

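The translation initiation factor genes were taken from the count files by symbol, as names that begin with EIF and a digit from 1 to 6, without the eIF2 kinases, the old EIF2C names and pseudogenes. By this rule 52 of the 56638 gene symbols were members, EIF4G2 and the 3 eIF4E-binding protein genes EIF4EBP1, EIF4EBP2 and EIF4EBP3 among them. RNA of human colorectal cancer cells was sequenced in 6 libraries, to ask what follows knockdown of the long noncoding RNA lncRNA-AF339830, which the paper calls GLCC1. In 3 libraries the title names Control siRNA, a nonspecific siRNA, and in 3 it names lncRNA-AF339830 siRNA, written GLCC1 siRNA from here on. Both groups were grown alike in RPMI-1640 medium with serum, and by the labels they differ in the siRNA alone. The labels give the cells as SW480 at passage 16-19, whereas DLD-1 is the line named for this sequencing in the methods of the paper, and which of them it was, was not tested. The genotype label ends in siRNA1 in every library of both groups, so the siRNA sequence used is not settled by it. Library names go the other way round from the titles, with AF in the names of the libraries titled Control siRNA and NC in those titled GLCC1 siRNA. The titles, source names and genotypes were followed, and if the library names were right every direction below would turn. GLCC1 has no row of its own in the files, so the knockdown was not checked here.

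Translation initiation brings the small ribosomal subunit, the initiator tRNA and the mRNA together at a start codon. eIF2 carries the initiator tRNA and is recharged with GTP by eIF2B, eIF3 binds the small subunit and coordinates the other factors, and the eIF4F complex (the cap-binding protein eIF4E, the helicase eIF4A and the scaffold eIF4G) loads the subunit at the capped end of the mRNA. EIF4G2, also called DAP5, encodes a relative of the eIF4G scaffold that lacks the eIF4E-binding part and serves translation that does not depend on eIF4E.

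Libraries held between 11948790 and 19042516 counts on genes, and GLCC1 siRNA replicate 2 was the smallest. It also stood apart from its group. A chi-square of the counts over genes, divided by its degrees of freedom, came to 18.1 and 18.9 in its 2 pairs with the other GLCC1 siRNA libraries, and to 1.91 to 4.12 in the 4 other same-group pairs. For many of the results that rest on it, the value without it is therefore given as well. The labels do not say that the libraries of a group came from separate cultures. The paper speaks of independent biological replicates for its experiments in general, without naming the sequencing, so p-values measure the spread between these libraries, which may in part be technical. Of 10 markers of colorectal epithelium, 9 had a mean of at least 10 CPM (counts scaled to library size), with KRT20 below 1 CPM. Their summed level was 5525 to 5912 CPM with control siRNA and 2542 to 2888 CPM with GLCC1 siRNA, and its part in the results below was not tested. With control siRNA most of that sum was KRT8, at 3584 CPM in the mean. With GLCC1 siRNA KRT8, at 1177 CPM, was still its largest part, and KRT18 and KRT19 fell as well. CDX1, CDH1 and EPCAM also fell, with log2 fold changes of -0.96, -0.53 and -0.30 (edgeR adjusted p = 3.22e-05, 0.000301 and 0.0454). CDX2, at -0.24, was not called (adjusted p = 0.0547), nor was KRT20. CDH17 of the same list rose by 0.45 (edgeR adjusted p = 0.00199) and VIL1 was at 0.21 (adjusted p = 0.0665). Summed markers of leukocytes (2.73 to 5.60 CPM, with PTPRC at 0), fibroblasts (11.3 to 19.0 CPM) and endothelium (0.335 to 1.45 CPM, with PECAM1 and CDH5 at 0) were low in every library.

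Translation initiation factor genes were more often lower than higher in the GLCC1 siRNA libraries. Of the 50 members that passed the filter on low counts, 23 fell and 5 rose with an adjusted p under 0.05, and 22 were not called. In percent, 46% of the members tested fell and 10% rose, beside 16.7% and 14.9% of the 23074 genes tested, or 31.6% in either direction (edgeR, quasi-likelihood test with Benjamini-Hochberg adjustment over all genes). Since most members are abundant, genes that average 10 CPM or more are a closer background. Of these 29.8% fell and 20.1% rose, 49.9% in all, against 46.8% and 10.6% of the 47 members at that level. The median log2 fold change, GLCC1 siRNA over control siRNA, was -0.25 for the members, 0.03 for all genes and -0.07 for all genes of at least 10 CPM. In 32 members every GLCC1 siRNA library lay below every control siRNA library (64%, background 24%, or 37.8% of genes of at least 10 CPM), and in 6 every one lay above (12%, background 22.3%, or 26.2% at 10 CPM). In such bulk RNA, fewer cells of a kind and less of an RNA per cell cannot be told apart.

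Falls were also larger than rises. Calls at an adjusted p under 0.05, with a mean of at least 1 CPM, were counted by size. A log2 fold change of -0.5 or below was found in 16 of the 50 members tested, and one of 0.5 or above in 0. Over all 23074 genes tested, those under 1 CPM included, the shares were 9.74% and 8.42%, or 2248 and 1943 genes. Only 14875 genes averaged 1 CPM or more, so among genes that could pass the background shares are larger. No member reached 0.5 at an unadjusted p under 0.05 or with DESeq2 either, whereas with library totals EIF1AX and EIF3F were called at 0.55 and 0.52, and EIF1AX was called at 0.51 without GLCC1 siRNA replicate 1 or 3. The falls moved too. With library totals EIF2D, EIF3D, EIF3K, EIF4G1 and EIF6 missed -0.5, at -0.44 to -0.41, though each was still called. Without GLCC1 siRNA replicate 2, EIF2D, EIF3D, EIF3K and EIF6 missed it, at -0.49 to -0.40, and were still called. At -1 or below, called and with no minimum level, stood 5 members, EIF3C, EIF4G2, EIF3CL, EIF4B and EIF2B2, beside 3.37% of all genes tested. All but EIF3CL, which is below 1 CPM, averaged at least 10 CPM, a level at which the share over all genes was 3.44%. The members took 1.022% to 1.074% of the counts on genes with control siRNA and 0.851% to 0.891% with GLCC1 siRNA. Without EIF4G2 these shares were 0.895% to 0.934% and 0.811% to 0.843%, so EIF4G2 made up part of the difference and the groups were separate without it. With GLCC1 siRNA replicate 2 left out, 31 members fell and 5 rose. Calls grew over all genes as well, to 5076 falls and 4844 rises among 22470 genes tested. With library totals in place of TMM factors, which moved the median of all genes from 0.03 to 0.15, 20 members fell and 7 rose. Over all genes that scaling gave 2797 falls and 4735 rises, in place of 3864 and 3429.

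**Figure D1:**
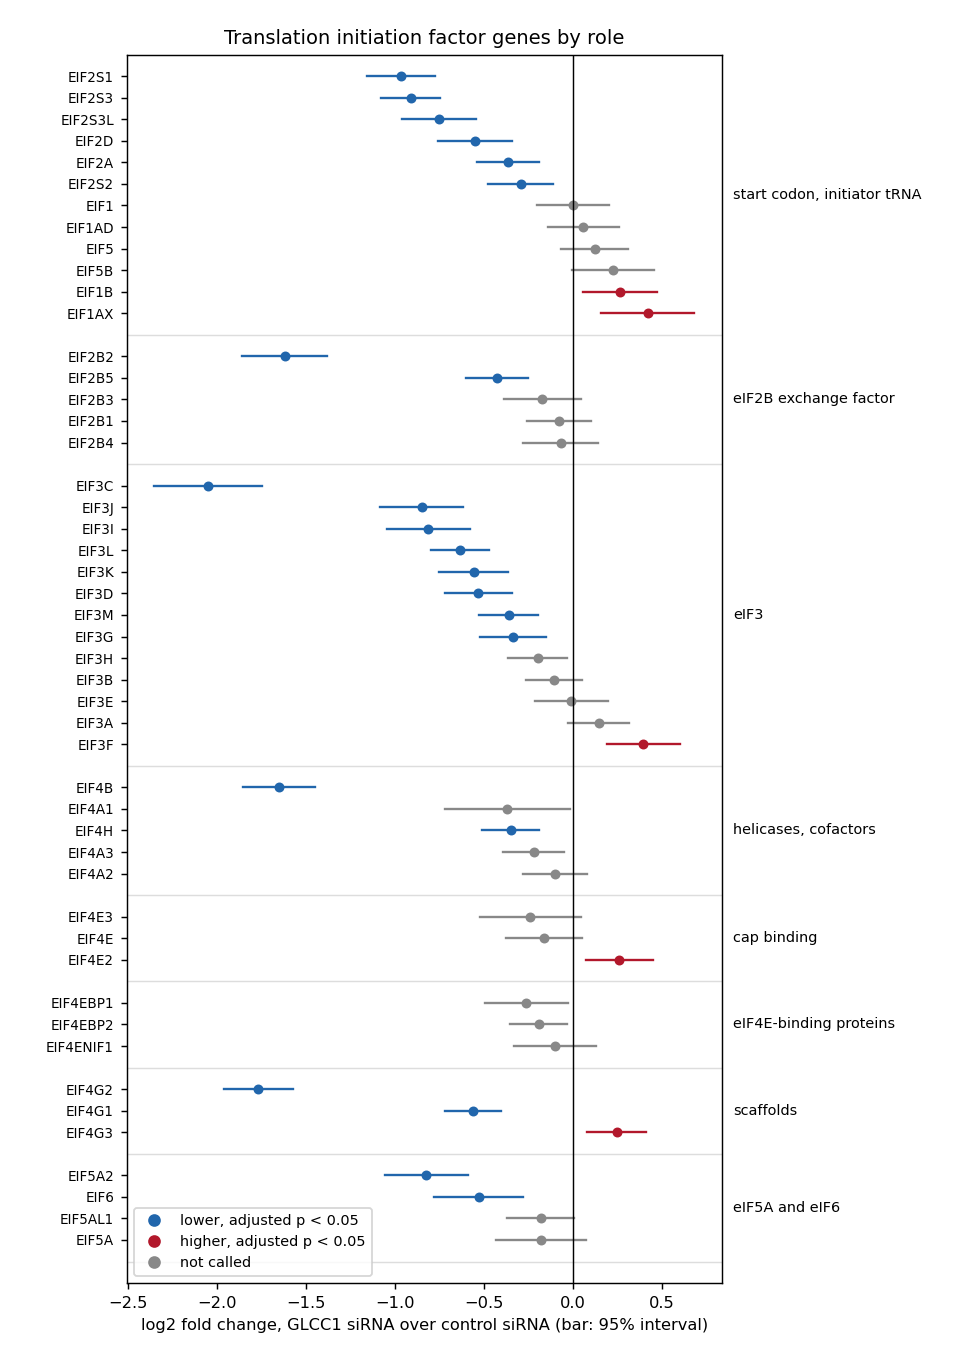
Log2 fold change (x axis, GLCC1 siRNA over control siRNA) of each initiation factor gene that averaged 1 CPM or more, in blocks by role, with points at the edgeR estimate, bars for the 95% interval, and colour for the call at an adjusted p under 0.05. EIF3C at -2.05, EIF4G2 at -1.77, EIF4B at -1.65 and EIF2B2 at -1.62 stand apart on the lower side, and the highest member, EIF1AX, is at 0.42.

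The siRNA and the 3′ UTRs of the members were compared letter by letter. The target of siRNA 1 of the paper, found in the genome on the plus strand at chr13:99049528-99049546 (GRCh37), ends in 8 bases that the start of the siRNA's antisense strand pairs with. It is shown because these end bases, in capitals, are the words searched for in 3′ UTRs. The words of the other strand of this siRNA, and those of siRNA 2 of the paper, were not searched for. Which siRNA was used in the libraries is not settled by the labels.
siRNA 1 target: ggaagagcaacACCTTGAA
ACCTTGA pairs with bases 2 to 8 of the antisense strand and CCTTGAA with bases 1 to 7, and the 2 words overlap in the 8-base word ACCTTGAA. They were searched for on the transcript strand of the canonical 3′ UTR (GENCODE 44 on GRCh37). Sites in the 3′ UTRs of members with large falls are shown with 8 bases on each side, the word in capitals, for EIF4G2 (chr11:10818742-10818764, minus strand), EIF4B (the first of 3 sites, chr12:53434875-53434898, plus), EIF3C (chr16:28746860-28746883, plus), EIF2S3 (chrX:24095647-24095669, plus) and EIF2S3L (chr12:10660651-10660673, plus), along with the first of the 2 sites of EIF3J (chr15:44853383-44853405, plus) and that of EIF1AX, a member that rose (chrX:20144794-20144816, minus).
EIF4G2: gttaatgcCCTTGAAgtggtttt
EIF4B: ctattgaaACCTTGAAactaaaaa
EIF3C: gccatccaACCTTGAAgtcctaaa
EIF2S3: caaattctCCTTGAAgaccttct
EIF2S3L: caaattatCCTTGAAgaccttct
EIF3J: ccacaatcCCTTGAAcatgtagc
EIF1AX: gaaaccagCCTTGAAgaattaac
How the members with and without such a word compare is given after the values by role.

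Among the scaffolds, EIF4G2 fell most. Its gene lies on the minus strand of chromosome 11 from 10818597 to 10830487 (GRCh37), and no 150-base window of its transcript matches another gene. EIF4G2 was measured at 1448, 1337 and 1489 CPM in control siRNA replicates 1 to 3 and at 376, 460 and 422 CPM in GLCC1 siRNA replicates 1 to 3. Every GLCC1 siRNA library was therefore far below every control siRNA library. The level was 29.4% of the control level, and the log2 fold change was -1.77 (standard error 0.0896, edgeR adjusted p = 2.72e-08). EIF4G1, the main scaffold of the cap-binding complex, was at 892, 887 and 904 CPM against 620, 580 and 621 CPM, again without overlap, and its log2 fold change was -0.56 (standard error 0.0724, edgeR adjusted p = 5.53e-05). EIF4G3, a second scaffold of that complex, went the other way. It had 178, 175 and 181 CPM with control siRNA and 212, 220 and 202 CPM with GLCC1 siRNA, which do not overlap, and its log2 fold change was 0.25 (standard error 0.0769, edgeR adjusted p = 0.0239). That call was lost without control siRNA replicate 1, 2 or 3 (adjusted p = 0.0952, 0.11 and 0.0853) or without GLCC1 siRNA replicate 1 (adjusted p = 0.0567).

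Per length, in CPM per kilobase of the canonical transcript, EIF4G2 was the most abundant scaffold in the control siRNA libraries at 375.5, above EIF4G1 at 165.5 and EIF4G3 at 27.8. In the GLCC1 siRNA libraries EIF4G2 and EIF4G1 were nearly level at 110.4 and 112.3, and EIF4G3 was at 33.1. The share of EIF4G2 among the counts of the 3 scaffold genes was 57.5%, 55.8% and 57.8% in the control siRNA libraries and 31.1%, 36.5% and 33.9% in the GLCC1 siRNA libraries. Within a library, this share does not depend on the normalization. The ratio of EIF4G2 to EIF4G1 counts was 1.62, 1.51 and 1.65 in the control siRNA libraries and 0.606, 0.793 and 0.679 in the GLCC1 siRNA libraries, so EIF4G2 went from more to fewer counts than EIF4G1. On the log2 scale the ratio was 0.67 ± 0.0682 (SD, n = 3) and -0.54 ± 0.195 (SD, n = 3), a difference of -1.21 (two-sided exact permutation test, p = 0.1, the smallest that 3 libraries against 3 can give).

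**Figure D2:**
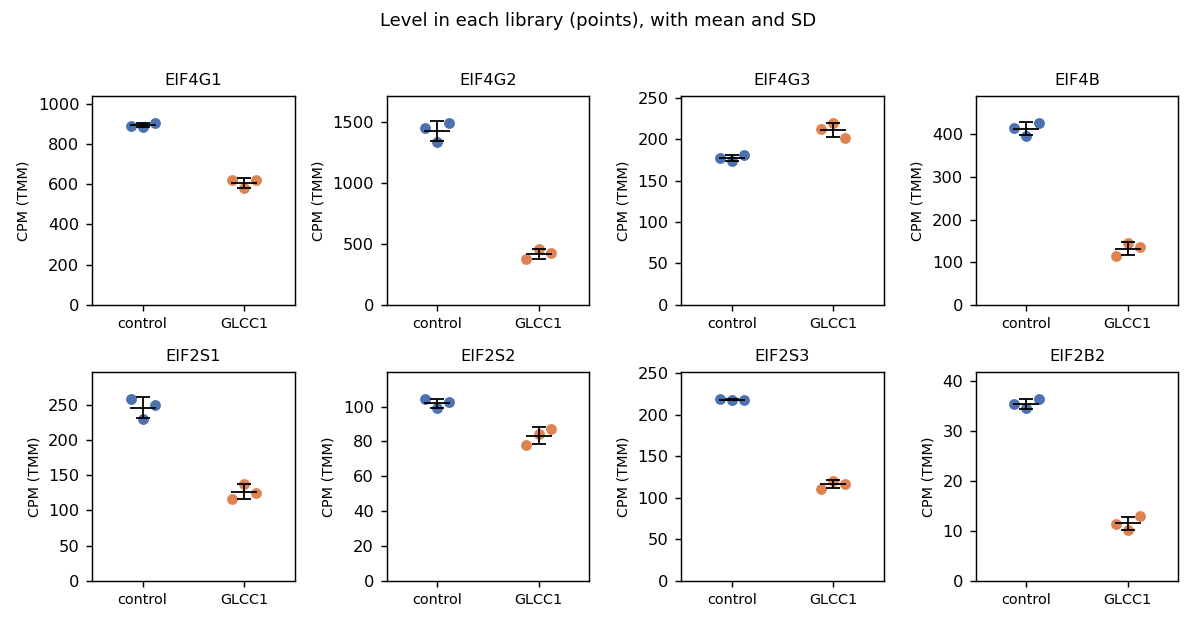
Level in CPM scaled by TMM factors (y axes, each from 0) in the 3 control siRNA and the 3 GLCC1 siRNA libraries, one point a library in the order of replicates, with the mean and SD in black. The groups do not overlap in any of the 8 genes, EIF4G3 is the one that is higher with GLCC1 siRNA, and EIF4G2 falls from 1425 to 419.0 CPM in the mean.

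EIF4B, which stimulates the helicase, showed the largest fall among the helicases and their cofactors. It was at 416, 396 and 426 CPM with control siRNA and at 114, 145 and 136 CPM with GLCC1 siRNA, 31.9% of the control level. The groups were far apart, and the log2 fold change was -1.65 (standard error 0.0945, edgeR adjusted p = 7.43e-08). Of its transcript, 7.99% in windows of 150 bases matches the pseudogenes EIF4BP3, EIF4BP6 and EIF4BP7, and reads of these stretches could be counted on either or on none. Counts of all 3 pseudogenes fell as well, by 1.45, 1.40 and 1.39 on the log2 scale (edgeR adjusted p = 5.84e-07, 7.05e-07 and 5.78e-06). EIF4H, a cofactor related to EIF4B, fell by 0.35 on the log2 scale.

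The helicase genes themselves were not called. EIF4A2 had 549, 501 and 558 CPM with control siRNA and 476, 546 and 481 CPM with GLCC1 siRNA, ranges that overlap, with a log2 fold change of -0.10 (95% interval -0.28 to 0.08, edgeR adjusted p = 0.402). GLCC1 siRNA replicate 2 was the highest of its group, and without it EIF4A2 fell by 0.16 on the log2 scale (edgeR adjusted p = 0.0136). With library totals the value was 0.02. EIF4A1, the usually abundant helicase of the cap-binding complex, was counted at no more than 10.2 CPM in any library. Every 150-base window of its transcript is shared with the readthrough gene SENP3-EIF4A1, and the pseudogene EIF4A1P10 had 126.6 CPM in the control siRNA libraries, so its count is uncertain. The log2 ratio of EIF4A2 to EIF4A1 counts differed by 0.31 between the groups (two-sided exact permutation test, p = 0.5) and by 0.05 without GLCC1 siRNA replicate 2. EIF4A3, the helicase of the exon junction complex, was at a log2 fold change of -0.22 (edgeR adjusted p = 0.0532), and without GLCC1 siRNA replicate 2 it fell by 0.16 (adjusted p = 0.00871).

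Cap-binding genes showed small differences. EIF4E2, a cap-binding protein linked to repression of translation, was the most abundant and rose, from 77.6, 79.8 and 83.5 CPM with control siRNA to 99.7, 88.8 and 100.5 CPM with GLCC1 siRNA. The groups did not overlap, and the log2 fold change was 0.26 (standard error 0.0867, edgeR adjusted p = 0.033). The call held without GLCC1 siRNA replicate 2 (adjusted p = 4.53e-06) and was lost without any one of the other libraries (adjusted p between 0.0841 and 0.142). EIF4E, the cap-binding protein of eIF4F, was at -0.16 (95% interval -0.38 to 0.05, edgeR adjusted p = 0.247) and EIF4E3 at -0.24, and EIF4E1B did not pass the filter. Without GLCC1 siRNA replicate 2, EIF4E and EIF4E3 fell by 0.23 and 0.33 (adjusted p = 0.00722 and 0.0205). The pseudogene EIF4EP2 shares 14.22% of the 150-base windows of EIF4E. Among the eIF4E-binding proteins, 3 repressors that compete with eIF4G for eIF4E and EIF4ENIF1, which carries eIF4E into the nucleus, edgeR and DESeq2 called 0 of 4 genes, and 2 had an unadjusted p under 0.05. Log2 fold changes lay between -0.26 and 0.02. EIF4EBP2, the most abundant of them, had 294, 298 and 290 CPM with control siRNA against 258, 268 and 246 CPM with GLCC1 siRNA. Its groups were separate, yet it missed the threshold at a log2 fold change of -0.19 (95% interval -0.35 to -0.03, edgeR adjusted p = 0.0702) and fell when GLCC1 siRNA replicate 2 was left out (adjusted p = 0.000456). EIF4EBP1 stood at -0.26 (edgeR adjusted p = 0.0841, or 0.0465 without GLCC1 siRNA replicate 2). The log2 ratio of EIF4EBP1 to EIF4E counts was 0.50 ± 0.161 (SD, n = 3) with control siRNA and 0.39 ± 0.331 (SD, n = 3) with GLCC1 siRNA, a difference of -0.11 that is smaller than either SD (two-sided exact permutation test, p = 0.7). Without GLCC1 siRNA replicate 2 that difference was 0.08. EIF4EBP3, below 1 CPM, shares 66.4% of its 150-base windows with a readthrough gene and is uncertain.

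**Figure D3:**
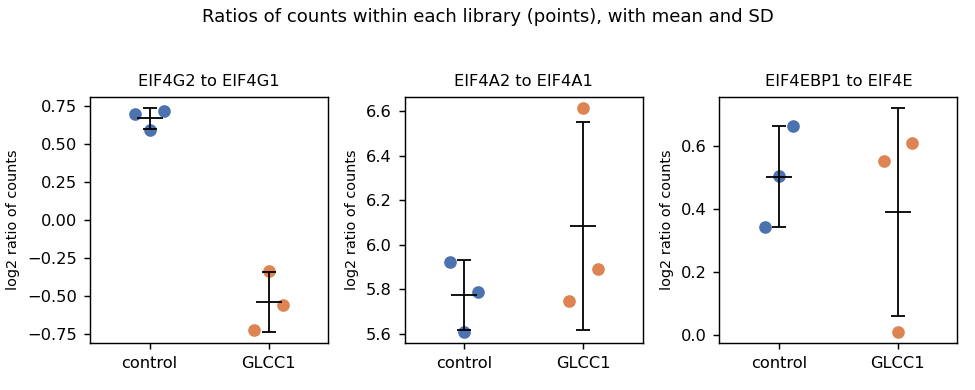
Log2 ratio of counts within each library (y axes) for EIF4G2 to EIF4G1, EIF4A2 to EIF4A1 and EIF4EBP1 to EIF4E in the 3 control siRNA and 3 GLCC1 siRNA libraries, with the mean and SD in black. The EIF4G2 to EIF4G1 groups are separate, from 0.67 to -0.54 in the mean, whereas in the other 2 ratios the groups overlap and GLCC1 siRNA replicate 2 lies away from its group.

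Genes of eIF2 fell unequally. EIF2S1 encodes the alpha subunit, on which stress kinases act, and was at 258, 230 and 251 CPM with control siRNA against 116, 138 and 125 CPM with GLCC1 siRNA. Its level with GLCC1 siRNA was 51.3% of the control level (log2 fold change -0.96, standard error 0.0889, edgeR adjusted p = 3.28e-06). EIF2S3, for the gamma subunit that binds GTP and the tRNA, was at 219, 218 and 218 CPM against 111, 121 and 117 CPM (log2 fold change -0.91, standard error 0.0776, edgeR adjusted p = 1.58e-06). In both genes no library of one group reached the other. EIF2S3L, a retrocopy of EIF2S3 named EIF2S3B in newer annotation, also had separate groups and was at 90.3, 84.8 and 90.3 CPM against 47.9, 59.2 and 51.0 CPM (log2 fold change -0.75, edgeR adjusted p = 5.71e-05). Only 3.06% of its 150-base windows match EIF2S3 exactly. EIF2S2, for the beta subunit, moved least of the 3 subunits, by -0.29 (edgeR adjusted p = 0.0164), and lost its call without control siRNA replicate 1 or 3 or GLCC1 siRNA replicate 1 (adjusted p = 0.0829, 0.0786 and 0.0822) and with library totals (0.146).

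Other genes for start codon selection and tRNA delivery went both ways. Over the whole role, the eIF2 genes above included, 6 of 12 were lower, 2 were higher and the median log2 fold change was -0.14. EIF2D, which can deliver tRNA without eIF2, fell from 50.6, 52.2 and 55.0 CPM to 35.9, 32.7 and 39.2 CPM, with separate groups (log2 fold change -0.55, standard error 0.0968, edgeR adjusted p = 0.000684). EIF2A, a separate tRNA-binding factor and not a subunit of eIF2, fell by 0.36. EIF1, which keeps the scanning ribosome from wrong start codons, was among the 3 members above 100 CPM that were nearest to 0, along with EIF3E and EIF4A2. It had 360, 396 and 382 CPM with control siRNA and 381, 334 and 428 CPM with GLCC1 siRNA, which overlap, and a log2 fold change of 0.00 (95% interval -0.20 to 0.21, edgeR adjusted p = 0.98). EIF1B, a paralogue of EIF1, and EIF1AX, which works with EIF1 on the scanning ribosome, rose by 0.27 and 0.42 (edgeR adjusted p = 0.0486 and 0.0169). EIF1AX was high in GLCC1 siRNA replicate 2, and without that library its value was 0.24 (adjusted p = 0.000239). The EIF1AX call was lost without control siRNA replicate 2 or 3 (adjusted p = 0.0838 and 0.0687), and that of EIF1B without control siRNA replicate 1, 2 or 3 or GLCC1 siRNA replicate 3 (adjusted p = 0.0998, 0.2, 0.126 and 0.109). EIF5, the GTPase activator of eIF2, EIF5B, which joins the ribosomal subunits, and EIF1AD were not called, at 0.12, 0.23 and 0.06. With library totals EIF5B rose (0.35, adjusted p = 0.0252). Without GLCC1 siRNA replicate 2, EIF5 and EIF5B were at 0.045 and 0.09 (edgeR adjusted p = 0.523 and 0.176). EIF1AY did not pass the filter.

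Of the 5 subunit genes of eIF2B, the exchange factor that recharges eIF2, EIF2B2 alone fell by more than 0.5 on the log2 scale. EIF2B2, for the beta subunit, was at 35.4, 34.6 and 36.4 CPM with control siRNA and 11.3, 10.3 and 12.9 CPM with GLCC1 siRNA, 32.6% of the control level. The groups were far apart (log2 fold change -1.62, standard error 0.111, edgeR adjusted p = 2.84e-07). In newer annotation 23.2% of its 150-base windows lie within other genes of the same place, and since the kit does not mark strand, reads of overlapping genes cannot be told apart. EIF2B5, for the catalytic subunit, fell by 0.42 (edgeR adjusted p = 0.00128). EIF2B1, EIF2B3 and EIF2B4 were not called, with log2 fold changes between -0.17 and -0.07, and the interval of each reached above 0. Without GLCC1 siRNA replicate 2, EIF2B3 fell by 0.23 (adjusted p = 0.00968).

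In number, the role with the most falls was eIF3, the largest role, with 9 of 14 genes lower, 1 higher and a median log2 fold change of -0.44. Its share of falls was 64.3%, beside 29.8% of all genes of at least 10 CPM. Of the 3 scaffold genes 66.7% fell, with a median of -0.56. EIF3C fell most, from 26.7, 23.4 and 22.1 CPM to 6.36, 4.61 and 6.21 CPM, 24.1% of the control level (log2 fold change -2.05, standard error 0.141, edgeR adjusted p = 2.87e-07). EIF3C and its copy EIF3CL share 95.11% and 95.01% of their 150-base windows with each other, so most of their reads have no unique place, their low counts are uncertain, and the fall was read on the remaining reads. EIF3CL, below 1 CPM in the mean, passed at -1.67 (edgeR adjusted p = 0.0464) and lost its call without control siRNA replicate 2 or 3 or GLCC1 siRNA replicate 1 (adjusted p = 0.117, 0.214 and 0.157). EIF3J, a loosely attached subunit at the mRNA entry channel, was at 150, 130 and 138 CPM with control siRNA against 68.5, 90.8 and 73.4 CPM with GLCC1 siRNA (log2 fold change -0.85, standard error 0.108, edgeR adjusted p = 5.16e-05). EIF3I, of the module around EIF3B, was at 305, 328 and 328 CPM against 198, 148 and 201 CPM (log2 fold change -0.81, standard error 0.109, edgeR adjusted p = 7.85e-05). Its value was -0.68 without GLCC1 siRNA replicate 2, the lowest of its group. In each of these genes the groups were separate.

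Other eIF3 subunits fell by less or missed the threshold. EIF3L, which pairs with EIF3K, was at 415, 414 and 440 CPM with control siRNA and 270, 264 and 284 CPM with GLCC1 siRNA (log2 fold change -0.63, standard error 0.0758, edgeR adjusted p = 2.87e-05). Another annotated gene shares 47.1% of the 150-base windows of EIF3L, so part of its count could be split. EIF3K was at 204, 218 and 222 CPM against 145, 131 and 161 CPM (log2 fold change -0.56, standard error 0.0899, edgeR adjusted p = 0.000348). EIF3D, which can itself bind the cap of some mRNAs, was at 299, 298 and 312 CPM against 213, 187 and 229 CPM (log2 fold change -0.53, standard error 0.0871, edgeR adjusted p = 0.000401). All 3 had separate groups, and the EIF3L and EIF3K falls were of like size. EIF3M and EIF3G fell by 0.36 and 0.34, and EIF3G lost its call without control siRNA replicate 2 (adjusted p = 0.0623). EIF3H was at -0.20 and missed the threshold (edgeR adjusted p = 0.0641, or 0.0101 without GLCC1 siRNA replicate 2).

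EIF3A, EIF3B and EIF3E showed no call. EIF3A, the largest subunit, and EIF3B, which holds EIF3G and EIF3I, were at 0.15 and -0.11 (edgeR adjusted p = 0.188 and 0.3), and with library totals EIF3A rose (0.27, adjusted p = 0.022). EIF3E had 503, 467 and 493 CPM with control siRNA and 440, 562 and 455 CPM with GLCC1 siRNA, so its groups overlapped and its log2 fold change was -0.01 (95% interval -0.21 to 0.20, edgeR adjusted p = 0.97). Replicate 2 of GLCC1 siRNA was the highest library of this gene. EIF3F rose by 0.40 (edgeR adjusted p = 0.00579), from a mean of 36.9 to 48.6 CPM, and kept its call with each library left out in turn (adjusted p at most 0.0499). Its pseudogene EIF3FP3 rose as well, by 0.66 (edgeR adjusted p = 0.000536). Per kilobase of transcript, the subunit genes spanned 278 (EIF3K) to 5.33 CPM (EIF3F) in the control siRNA libraries, EIF3CL left aside. EIF3E was next to EIF3K at 241 CPM per kilobase there and stood first with GLCC1 siRNA, at 240.1 against 189 for EIF3K. EIF3I went from 225 to 128, EIF3D from 161 to 112 and EIF3L from 159 to 102 CPM per kilobase, whereas EIF3A went from 84.2 to 93.2 and EIF3B from 95.4 to 88.6. EIF3F and EIF3C, far under the others, changed places, with EIF3C going from 8.28 to 1.97 and EIF3F from 5.33 to 7.03 CPM per kilobase. The place of both is uncertain. EIF3F was divided by a canonical transcript of 6920 bases, of which 5830 are 3′ UTR, and EIF3C shares 95.11% of its 150-base windows with EIF3CL.

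**Figure D4:**
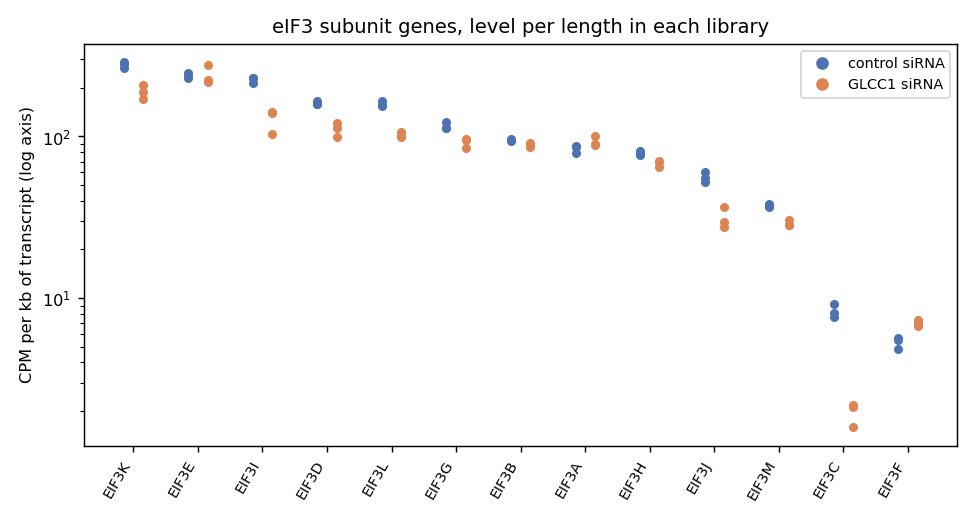
Level of each eIF3 subunit gene at 1 CPM or more, in CPM per kilobase of the canonical transcript (y axis, log scale), one point a library, in order of the control siRNA mean. Most subunit genes are lower with GLCC1 siRNA, EIF3C by the most at 8.28 to 1.97, EIF3E is nearly level at 241 and 240.1, and EIF3F is higher.

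Of eIF5A, which helps the ribosome through difficult peptide bonds, and eIF6, which keeps the large subunit from joining too early, 2 of 4 genes fell. EIF5A2, the less common eIF5A gene, was at 80.6, 79.7 and 74.7 CPM with control siRNA and 39.9, 52.1 and 41.5 CPM with GLCC1 siRNA (log2 fold change -0.82, standard error 0.108, edgeR adjusted p = 6.36e-05). EIF6 was at 62.8, 63.6 and 69.9 CPM against 50.3, 36.8 and 48.6 CPM (log2 fold change -0.53, standard error 0.115, edgeR adjusted p = 0.00311), with GLCC1 siRNA replicate 2 the lowest and a value of -0.40 without it. Both had separate groups. Another annotated gene shares 14.67% of the 150-base windows of EIF6, so part of its count could be split. EIF5A, more abundant per kilobase at 257 CPM against 14.2 for EIF5A2, was not called, at -0.18 (95% interval -0.43 to 0.07, edgeR adjusted p = 0.276), nor was its retrocopy EIF5AL1, also at -0.18. Without GLCC1 siRNA replicate 2, EIF5A was at -0.03 (edgeR adjusted p = 0.713).

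The words of siRNA 1 were present in 10 of the 46 members whose 3′ UTR could be searched, a share of 21.7% beside 21.1% of the 12065 genes searched, so the members carry them about as often as genes do at large. Of these 10 members 8 fell and 1, EIF1AX, rose, while of the 36 without a word 13 fell and 4 rose. Over all genes searched, 983 of the 2546 with a word fell and 400 rose, and 2342 of the 9519 without one fell and 2026 rose. Median log2 fold changes were -0.19 for the 36 members without a word, -0.75 for the 7 with a 7-base word and -1.65 for the 3 with the 8-base word, EIF3C, EIF4B and EIF2A. Over all genes searched the medians were -0.03, -0.15 and -0.26. With so few members these are descriptions, and EIF3K and EIF3CL were not among those searched. Falls of 0.5 or more also occurred in members without a word, EIF2B2, EIF2S1, EIF5A2, EIF3I, EIF3L, EIF4G1, EIF2D, EIF3D and EIF6, while EIF4EBP2 and EIF2S2 carry a word with log2 fold changes of -0.19 and -0.29. A match of letters is no sign of pairing in the cell, and whether the words have a part in the falls was not tested.

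The paper concerns c-Myc, so the E-box CACGTG, the letters that c-Myc and its relatives bind, was looked for in promoters from 250 bases before to 50 after the gene start (RefSeq, GRCh38.p14). The word reads alike on both strands. It was present in 11 of the 44 members matched (25%), beside 10.2% of the 9659 matched genes that averaged 1 CPM or more and 7.43% of all 27305 promoters. The sites of EIF4B (chr12:53006422-53006451, plus strand) and the site of EIF4G1 nearest to its start (chr3:184314527-184314556, plus strand) are shown because both genes fell, and that of EIF3F (chr11:7987257-7987286, plus strand) because it rose, each with 12 bases on either side of the capitals.
EIF4B: gcccgctataatCACGTGattgcctcatcc
EIF4G1: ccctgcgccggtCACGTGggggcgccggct
EIF3F: aaagctctagctCACGTGgtgtatattcag
In EIF4G2 these letters were not in the window. The other members with the word were EIF1B, EIF2B3, EIF3K, EIF4A3, EIF4E, EIF4EBP3, EIF4H and EIF5A2, so members with it fell (EIF4B, EIF4G1, EIF3K, EIF4H, EIF5A2), rose (EIF1B, EIF3F) or were not called. A match is no measure of binding.

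Genes that act on or beside the initiation factors were taken from 4 lists, of which 58 of 59 genes were tested, and 19 fell and 8 rose. These are 32.8% and 13.8% of the genes tested, beside 16.7% and 14.9% of all genes and 29.8% and 20.1% of those of at least 10 CPM, so at this level the share of falls was near the background. Their median log2 fold change was -0.15. With library totals 11 of them fell and 12 rose, and over all genes that scaling gave 2797 falls and 4735 rises. The falls were fewer since PPP1R15B, RPS6, ABCE1, CYFIP1, EEF2, EEF2K, EEFSEC and GSPT1 missed the threshold. Each of these 8 also missed it without 2 to 5 of the libraries, left out in turn. Without control siRNA replicate 3 the number of falls was 12. In the list around the eIF2 kinases 4 of 11 fell and 2 rose. The rises were EIF2AK2, the kinase PKR that is activated by double-stranded RNA, at 0.73, and ATF4, the transcription factor whose translation rises when eIF2 is phosphorylated, at 0.52 (edgeR adjusted p = 8.43e-05 and 0.000131). The falls were IMPACT at -0.63, GCN1L1, an activator of the kinase GCN2, at -0.51, ABCF1 at -0.39 and PPP1R15B, a subunit of an eIF2 phosphatase, at -0.32. In the list of mTORC1, the kinase that frees eIF4E from its binding proteins, and the MNK kinases, 5 of 18 fell and 2 rose. SESN2, a stress-induced inhibitor of mTORC1, rose by 1.13 and the eIF4E kinase MKNK2 by 0.47 (edgeR adjusted p = 6.63e-06 and 0.0068). RPS6KB1, an mTORC1 substrate that acts on EIF4B, fell by 0.69, the mTORC1 activator RHEB by 0.51, TSC1 by 0.42, MKNK1 by 0.37 and RPS6 by 0.29.

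Among 14 partners that bind mRNA or the scanning ribosome 3 rose and 3 fell. DENR and MCTS1, which form a pair that acts in reinitiation, rose by 0.62 and 0.38, the latter not without control siRNA replicate 3, and the poly(A)-binding protein gene PABPC4 by 0.53 (edgeR adjusted p = 0.00118, 0.0105 and 0.00013). BZW1, an eIF5 mimic, fell by 0.88 and CYFIP1, an eIF4E-binding partner of FMRP, by 0.25. ABCE1, a ribosome recycling factor, fell by 0.43 (edgeR adjusted p = 0.0291) although its groups overlapped. Its log2 fold change was -0.64 without GLCC1 siRNA replicate 2. Of 15 elongation and termination genes 7 fell and 1, GSPT2, rose by 0.72. The falls were DOHH at -0.85 and DHPS at -0.51, the enzymes that make the hypusine residue of eIF5A, EEF1B2 at -0.56, EEFSEC at -0.38, EEF2K at -0.33, EEF2 at -0.31 and the release factor gene GSPT1 at -0.28. Both genes of the hypusine pathway therefore fell while EIF5A itself was not called. Without GLCC1 siRNA replicate 2, EEF1B2 and DHPS were at -0.39 and -0.40.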

How the data were processed

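Paired-end RNA sequencing libraries were prepared with the TruSeq RNA kit, which does not mark strand, from 3 samples titled Control siRNA and 3 titled lncRNA-AF339830 siRNA. The authors deposited raw counts per gene symbol, unnormalized, mapped to hg19 (GRCh37) with TopHat2 2.0.11 and counted with HTSeq per the submitters' processing notes. HTSeq tallies of reads given to no gene, 30.0% to 30.9% of reads, were left out.

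Genes whose counts summed to under 5 in each of the groups were removed. Counts were normalized with TMM factors (0.95 to 1.05) and compared with the robust quasi-likelihood test of edgeR 4.0.16 under R 4.3.3, with Benjamini-Hochberg adjustment over 23074 genes, and called at an adjusted p under 0.05. The procedure was tested on simulated data. CPM values are scaled by these factors, marker sums by totals alone. Intervals of fold changes are at 95%. Ratios had 1 count added. Members and lists were chosen with earlier results of these data known. Levels in every library were given for EIF4G2, for members called with a log2 fold change of at least 0.5 in size and a mean of at least 1 CPM, for the most abundant member of a role with none of these, and for the 3 members above 100 CPM nearest to 0, and pathway genes were named where called. EIF4B, EIF3F and EIF4A1 pseudogenes, and members described by their fold change alone, are outside that rule and were picked with their values known.

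Positions, transcript lengths, 3′ UTRs of at least 50 nt in genes of at least 1 CPM, and shared windows of 150 bases came from GENCODE 44 on GRCh37, and promoters from RefSeq. Shared windows are exact matches or the same place in that annotation, which is newer than the one counted on. With 3 libraries a side, precision was set by the spread between them, and EIF3CL at under 1 CPM had a standard error of 0.593 where EIF4G1 had 0.0724. Alternatives were DESeq2 1.42.0, its size factors, library totals, 2 other filters, a fit that was not robust, a replicate block, an adjusted p under 0.01, ratios without the added count and each library left out. Python 3.11.15 with pandas 2.3.3, numpy 2.4.6 and scipy 1.17.1 was used otherwise.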

Additional observations from a re-analysis of the deposited data

How the results depend on the processing

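EIF4G2 kept its direction and call under all 13 alternatives to which its fit was put, with log2 fold changes between -1.83 and -1.64. The number of members that fell was between 20 and 31 over the alternatives. The number that rose was 5, and it was 1 at an adjusted p under 0.01 and 1 to 5 when each library was left out. With the replicate number as a block, 22 members fell and 2 rose. Libraries of the same number did not deviate together (correlations of deviations from the group means between -0.29 and -0.01 over 14875 genes, and between -0.24 and 0.25 for other pairs), so the numbers were not taken to pair samples. DESeq2 gave 22 falls and 4 rises.

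Of the pathway genes, 19 fell and 8 rose. With library totals 11 fell and 12 rose, and when each library was left out 12 to 25 fell. The EIF4EBP1 to EIF4E log2 ratio turned from -0.11 to 0.0782 without GLCC1 siRNA replicate 2 and otherwise went down to -0.2211 without a library, and the EIF4G2 to EIF4G1 ratio stayed between -1.31 and -1.12. EIF1, at 0.0043, was at -0.0019 with the replicate block, -0.0322 without control siRNA replicate 1 and -0.0846 without GLCC1 siRNA replicate 3, in a range of -0.0846 to 0.0943 over the libraries left out. EIF3E, at -0.0065, was at 0.0067 with DESeq2 and with its size factors, 0.1162 with library totals, 0.0326 with a filter of 10 counts in every library, and -0.1195 to 0.0633 when each library was left out. EIF4A2 turned to 0.0242 with library totals. None of these passed the threshold. EIF1B also lost its call with DESeq2 and with a filter of 1 count in any library (adjusted p = 0.0524 and 0.0602), EIF3CL with DESeq2 (adjusted p = 0.109), and EIF3CL and EIF3G with library totals (adjusted p = 0.0593 and 0.0726). With the block, EIF1B, EIF2S2, EIF4E2 and EIF4G3 were no longer called (adjusted p = 0.118, 0.0553, 0.0918 and 0.0822). The causes were not tested. With 3 libraries a side, no exact test of a single value can fall below 0.1.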
